A study of Mus musculus with 6 samples.

Results

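Lysosomal hydrolases and membrane proteins were followed in mouse cumulus-oocyte complexes through the ovulatory response to human chorionic gonadotropin (hCG), the hormone that triggers ovulation. The members were 41 genes given by name: cathepsins and other lysosomal proteases, glycosidases, sulfatases, lipid hydrolases, the proteins that carry lipids inside the lysosome, lysosomal membrane proteins and the transcription factor Tfeb. A probe set was taken for a member where its only gene symbol in the array's annotation was that member's. Of the 41 genes, 40 had such a probe set and all 40 passed the filter on dim probe sets, out of 13559 genes tested on the arrays. Cd63 was not analysed here. The 40 genes had 88 probe sets, of which 77 were tested, and each gene is described by its brightest one unless another is named.

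The complexes, each an oocyte with the cumulus cells around it, came from wild type immature female mice that had all received equine chorionic gonadotropin (eCG), a hormone that stimulates follicle growth, for 48 h. The 3 groups held 2 Affymetrix arrays each and had received no hCG, hCG for 8 h, or hCG for 16 h. The labels describe the complexes without hCG as punctured out of ovaries and those of both later times as taken from the oviduct. The site of collection and the hormone thus cannot be told apart in the comparisons with no hCG. Both later times share the labelled site, but whether the true site also differed between 8 h and 16 h was not tested. The labels also call the complexes without hCG expanded, and complexes were pooled before RNA extraction. Whether the labels of site and of expansion are right was not tested. Nothing states that replicates were separate animals or collections, so each p-value reflects only how far these samples scatter, which may be technical variation.

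Lysosomes are acidic organelles in which proteases, glycosidases, sulfatases and lipases break down proteins, sugar chains and lipids that arrive by endocytosis or autophagy. A membrane pump brings in protons, heavily glycosylated membrane proteins line the inner face, and small carriers and channels release sterols, amino acids and calcium. In the mouse ovary, cathepsin L is known as a protease that granulosa cells induce during ovulation. Phagocytes carry many lysosomes and express the same genes at high levels.

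Many lysosomal promoters in mammals carry a short element built around the E-box CACGTG, which Tfeb and its relatives can bind. The promoters of 35 of the 40 measured genes were matched in RefSeq sequences of assembly GRCm38.p6, each from 250 bases before to 50 bases after the start. The letters TCACGTG, which contain CACGTG, were looked for on both strands, and 10 of the 35 genes (28.6%) held them, against 4.29% of all 27025 genes with a promoter in that table and 6.53% of the 10876 among them that were tested on the arrays. CACGTG alone was in 11 of the 35 (31.4%), against 8.09% of all genes and 11.2% of those tested. The genes with TCACGTG were Lamp1, Ctsd, Lgmn, Ctsa, Gaa, Mcoln1, Glb1, Gla, Arsa and Sgsh. Stretches of 4 of these promoters are shown, 5′ to 3′ on the gene's strand. They are those of the genes with the highest mean level over the arrays. The stretches of Lgmn and Ctsa lie inside the gene's annotated span, so their start is not the gene's outermost one. Lamp1 held the letters at 4 separate places. Mcoln1 and Gla also held them more than once, and Ctsa had a further match just after the start, beyond the stretch shown. Capitals mark TCACGTG read on either strand.
Lamp1, chr8:13159079-13159160, plus strand: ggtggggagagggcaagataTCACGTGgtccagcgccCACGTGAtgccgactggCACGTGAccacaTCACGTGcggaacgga
Ctsd, chr7:142387899-142388077, minus strand: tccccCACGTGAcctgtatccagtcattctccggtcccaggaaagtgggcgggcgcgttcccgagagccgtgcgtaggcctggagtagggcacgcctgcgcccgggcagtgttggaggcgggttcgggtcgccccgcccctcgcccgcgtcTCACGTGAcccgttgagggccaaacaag
Lgmn, chr12:102439116-102439162, minus strand: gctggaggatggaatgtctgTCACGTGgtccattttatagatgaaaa
Ctsa, chr2:164833740-164833772, plus strand: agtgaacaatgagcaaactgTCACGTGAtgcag

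Levels are given as the deposited log2 intensities. Replicate arrays correlated at 0.991 or above, arrays of different groups at 0.943 to 0.978, and array medians differed by no more than 0.125. The hyaluronan synthase gene Has2 averaged 5.72 ± 0.07 in the arrays without hCG, 8.96 ± 0.06 at 8 h and 7.06 ± 0.02 by 16 h (SD, n = 2 each). The zona pellucida gene Zp3 averaged 12.27 ± 0.27, 9.67 ± 0.15 and 7.77 ± 0.59 at the same times, so markers of cumulus cells and of the oocyte were both measured. All 13 oocyte marker genes tested fell at 8 h and at 16 h relative to no hCG. Of all genes tested, 20.5% and 20.8% fell at these times. The 3′ minus 5′ difference of the Gapdh control probe sets was 1.44 and 1.17 without hCG, 1.40 and 1.44 at 8 h, and 1.37 and 1.31 at 16 h, so the 16 h arrays lay within the range without hCG and just below those of 8 h. For β-actin the 6 arrays spanned 0.91 to 1.09, with overlap. The transferrin receptor controls separated the groups, with 1.46 and 1.27 at 8 h and 1.53 and 1.32 at 16 h, against 1.11 and 0.88 without hCG. Their 3′ minus middle difference was 1.82 and 1.69 at 16 h, against 1.34 and 1.49 at 8 h. The pyruvate carboxylase controls gave 0.68 and 0.91 at 8 h and 1.03 and 1.07 at 16 h, against 1.42 and 1.66 without hCG, the opposite direction. What part RNA quality had in the results was not tested. In RNA from whole complexes, fewer cells of a type and less RNA per cell cannot be told apart.

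The lysosomal genes were mostly higher at 16 h. Between 8 h and 16 h, 22 of 40 rose and 0 fell (limma, Benjamini-Hochberg adjusted p under 0.05, and 26 higher and 2 lower at an unadjusted p under 0.05). Among all 13559 genes tested, 11.8% rose and 9.12% fell in that comparison, and 2486 were higher and 1896 lower at an unadjusted p under 0.05. The members' median log2 difference was 0.54, against 0.01 over all genes tested. At least 2-fold rises were called for 5 members and for 686 of all 13559 genes tested. The number called depended on single arrays: it was 8 without replicate 1 of 16 h, 13 without replicate 2 of 16 h, 8 without replicate 1 of 8 h and 10 without replicate 2 of 8 h. Lgmn, Man2b1, Manba, Arsa and Grn were called in all 15 alternatives, and Ctsd in all that could be run for it, which leaves out the one without cross-hybridising probe sets. The other 16 calls were each lost in 1 to 6 alternatives. Of the 40 members, 36 had a higher mean at 16 h than at 8 h, as had 7005 of all 13559 genes tested.

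At 8 h against no hCG the members moved in both directions. Of the 40, 7 rose (Ctsc, Lgmn, Gla, Lipa, Npc2, Psap and Lamp2) and 5 fell (Ctsh, Idua, Arsb, Ppt1 and Npc1), with a median difference of 0.10 against -0.02 over all genes tested. Over all genes, 16.9% rose and 20.5% fell, so the members' 17.5% and 12.5% lay near or under that background. The number called was 8 to 14 when single arrays were left out, against 12 with all arrays. Without replicate 2 of 8 h it was 8. Of the falls, Ctsh was called in all 15 alternatives, while Arsb was lost in 1, Idua and Npc1 in 3 each and Ppt1 in 8.

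At 16 h against no hCG, 24 of 40 members rose and Ctsh and Sgsh fell, with 20.8% of all genes rising and 20.8% falling. The median difference was 0.66 for the members and -0.02 over all genes tested. At least 2-fold rises were called for 14 members and for 1355 of all 13559 genes tested. Leaving out single arrays gave 19 to 26 called members. The 3 comparisons share arrays, so a chance deviation of 1 group enters a pair of them. Differences are on the log2 scale with their standard errors, and each comes from the same fit.

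**Figure D1:**
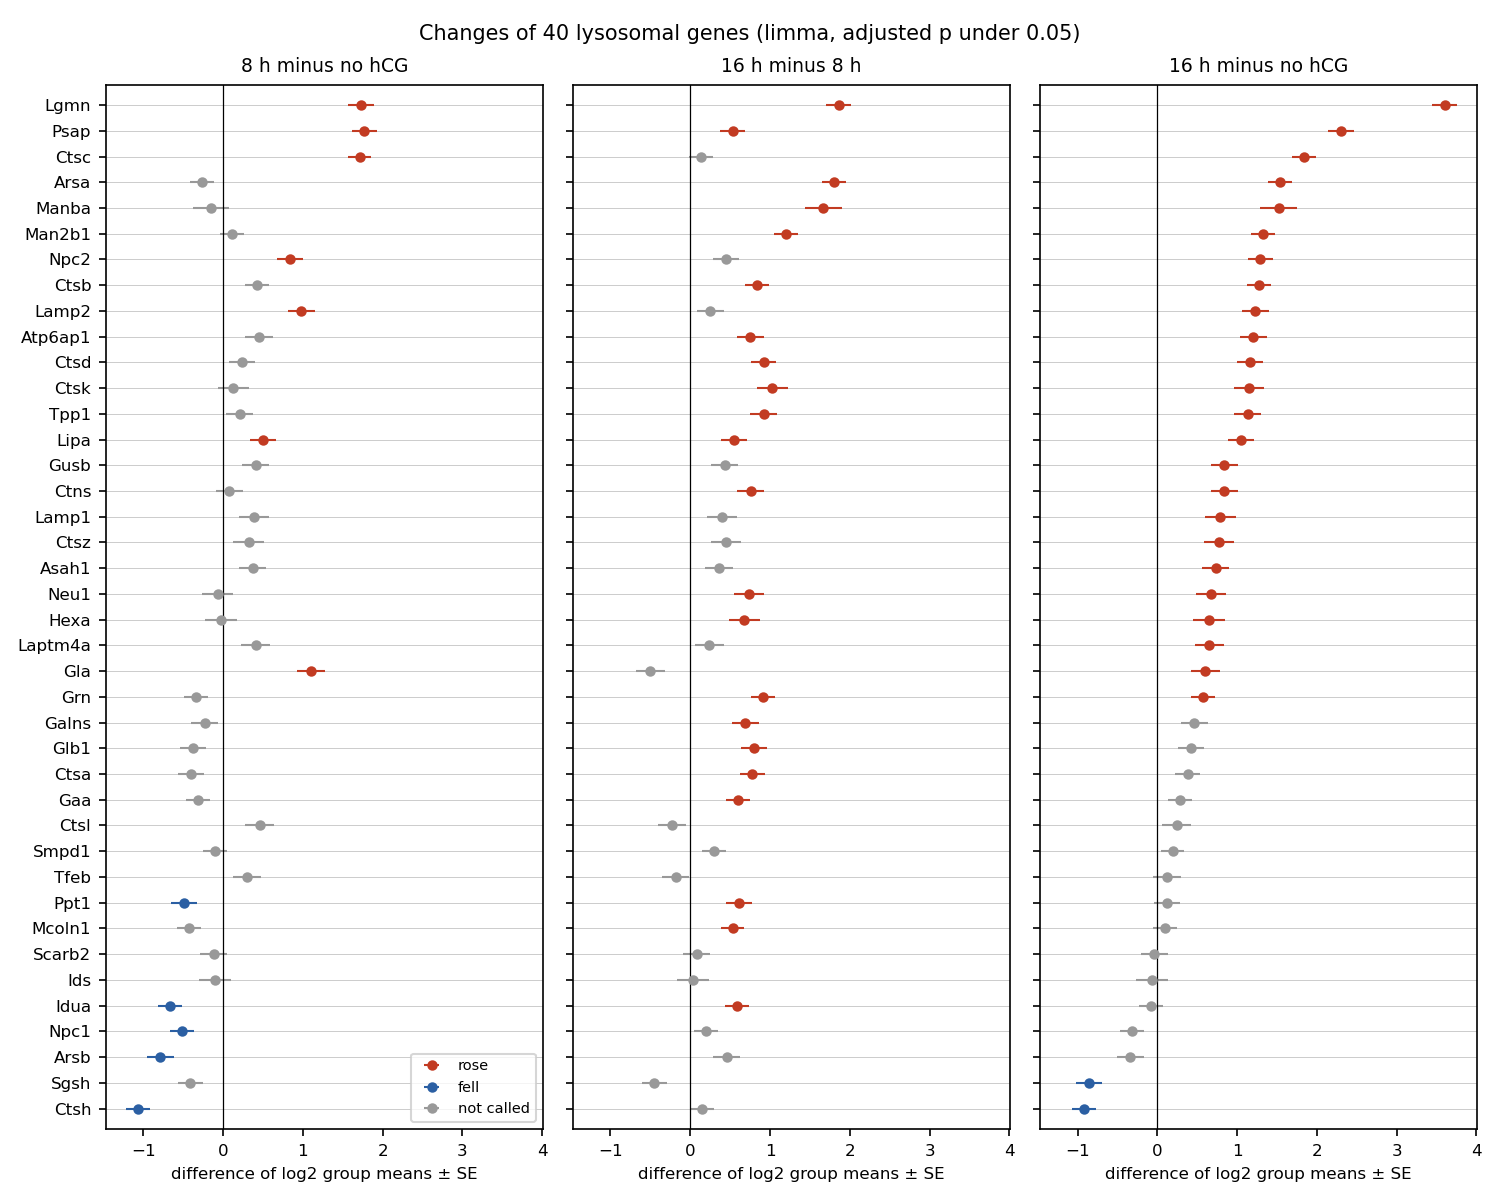
Log2 differences of the 40 lysosomal genes for 8 h minus no hCG, 16 h minus 8 h and 16 h minus no hCG, sorted by the last. Points are fitted differences with standard errors, red for genes that rose, blue for genes that fell and grey for genes not called. Lgmn stands at the top of 16 h minus no hCG with 3.60, and in 16 h minus 8 h 22 genes are red and 0 are blue.

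Among the 7 cysteine proteases, Lgmn had the largest difference of any member at 16 h against no hCG. Lgmn encodes legumain, an endopeptidase that cuts after asparagine and trims cathepsins to their mature forms. Its log2 intensity was 9.02 and 9.25 without hCG, 10.78 and 10.95 at 8 h, and 12.75 and 12.71 at 16 h. The 3 groups did not overlap, and each time stood above the one before. Lgmn rose by 1.73 ± 0.16 at 8 h against no hCG (adjusted p = 2.89e-05), by 1.86 ± 0.16 at 16 h against 8 h (adjusted p = 5.79e-05) and by 3.60 ± 0.16 at 16 h against no hCG, which is 12.1-fold (adjusted p = 4.19e-07). Ctsc, whose dipeptidyl peptidase activates granule serine proteases in leukocytes, measured 11.30 and 11.41 without hCG, 12.98 and 13.16 at 8 h, and 13.14 and 13.25 at 16 h. Its rise lay in the first interval: 1.71 ± 0.15 at 8 h against no hCG (adjusted p = 2.65e-05), while 16 h against 8 h gave 0.13 (adjusted p = 0.684) and the arrays of both later times overlapped.

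Ctsb, an endopeptidase and carboxypeptidase, measured 12.05 and 12.17 without hCG, 12.47 and 12.61 at 8 h, and 13.38 and 13.37 at 16 h. It rose by 0.84 ± 0.15 at 16 h against 8 h (adjusted p = 0.00424) and by 1.27 ± 0.15 at 16 h against no hCG, and its 0.43 ± 0.15 at 8 h was not called (adjusted p = 0.0533). Ctsk, the collagen-degrading cathepsin of osteoclasts, was dim in the first groups, at 6.28 and 6.50 without hCG and 6.28 and 6.75 at 8 h. It reached 7.63 and 7.45 at 16 h, above all earlier arrays, a rise of 1.03 ± 0.19 over 8 h (adjusted p = 0.0051). Ctsz, a carboxypeptidase, was called only in the longest comparison, with 0.77 ± 0.19 at 16 h against no hCG (adjusted p = 0.011).

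Ctsh fell, and Ctsl was not called on its brightest probe set. Ctsh, an aminopeptidase, measured 10.92 and 10.86 without hCG, 9.93 and 9.70 at 8 h, and 9.95 and 9.98 at 16 h. Both later groups lay below the arrays without hCG, and Ctsh fell at 8 h (-1.07 ± 0.15, adjusted p = 0.000506) and at 16 h (-0.92 ± 0.15, adjusted p = 0.00116) against no hCG. The brightest Ctsl probe set, for a broadly expressed endopeptidase, measured 13.97 and 14.18 without hCG, 14.36 and 14.73 at 8 h, and 14.28 and 14.35 at 16 h, with no call in any comparison. The 8 h difference of 0.46 ± 0.18 had an adjusted p of 0.0696. This probe set is close to the top of the scale, where the arrays reach 15.5, and a dimmer Ctsl probe set gave another picture: 8.59 and 8.68 without hCG, 10.81 and 11.01 at 8 h, and 8.99 and 8.35 at 16 h. On that probe set Ctsl rose by 2.27 ± 0.21 at 8 h against no hCG (adjusted p = 3.26e-05) and stood lower at 16 h than at 8 h (-2.24 ± 0.21, adjusted p = 0.000105).

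**Figure D2:**
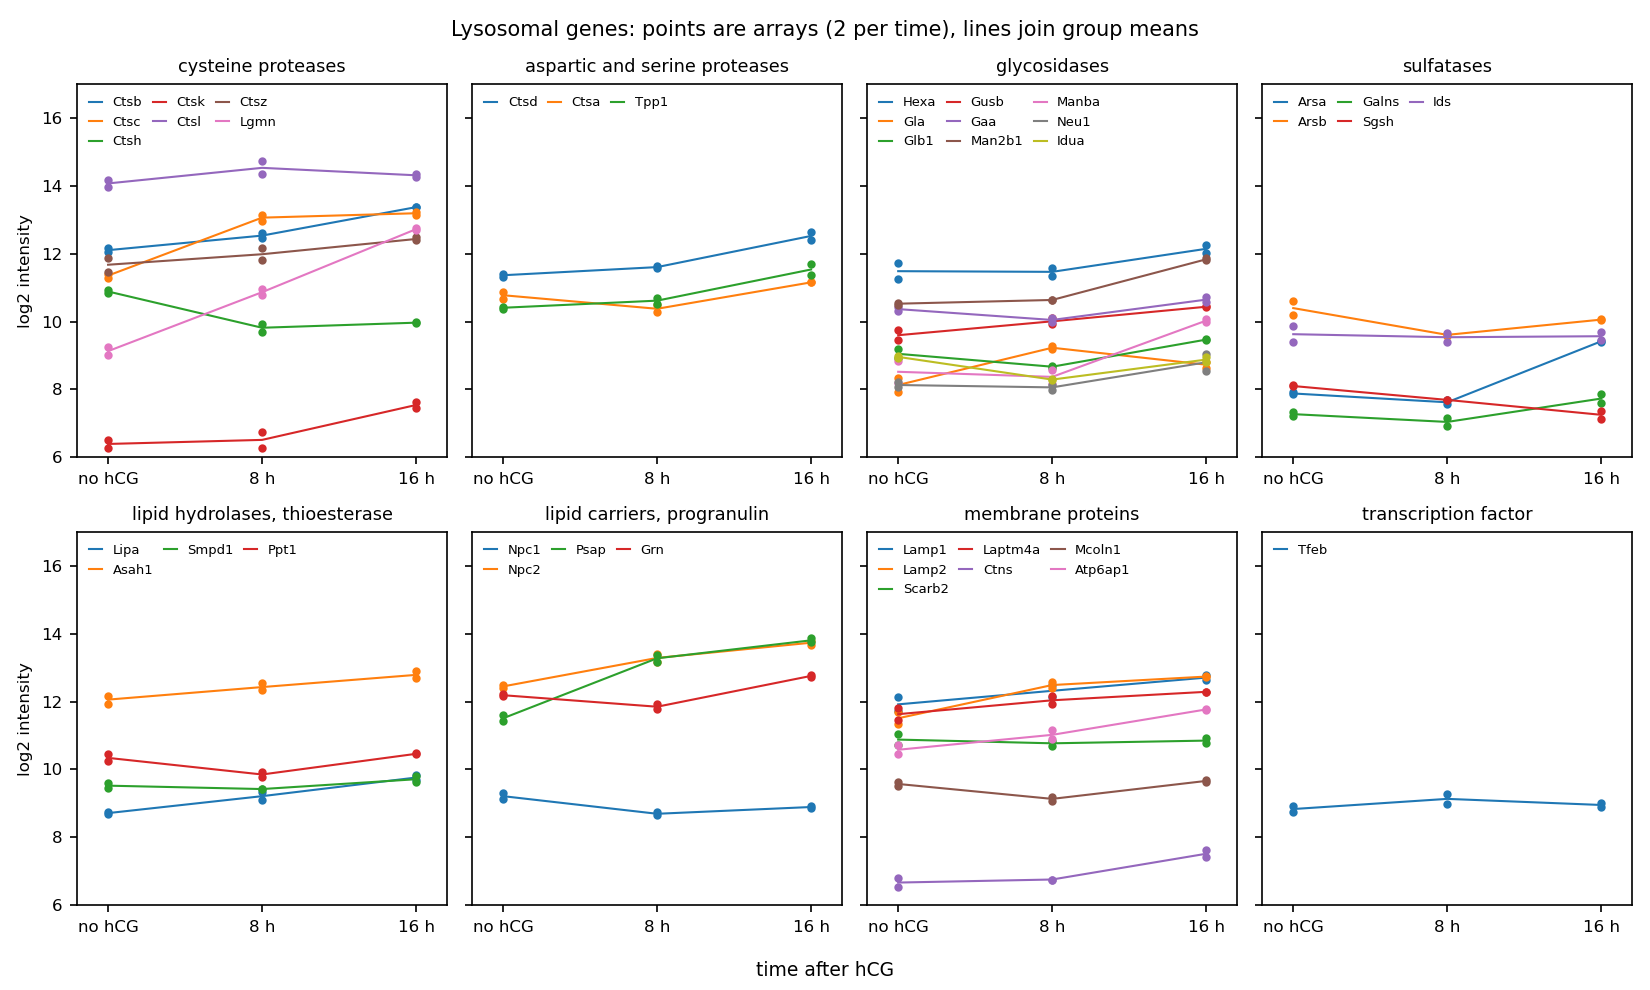
Log2 intensity of the 40 lysosomal genes without hCG, at 8 h and at 16 h, by role. Points are single arrays, 2 per time, and lines join group means. Lgmn climbs at each step, Ctsc and Psap climb mainly by 8 h, and Arsa, Manba and Man2b1 climb between 8 h and 16 h.

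The aspartic and serine proteases were Ctsd, Ctsa and Tpp1, and all 3 rose between 8 h and 16 h. Of all genes tested, 11.8% rose. Ctsd, the main aspartic protease of lysosomes, measured 11.32 and 11.42 without hCG, 11.57 and 11.65 at 8 h, and 12.41 and 12.65 at 16 h. The 16 h arrays lay above all others, and Ctsd rose by 0.92 ± 0.16 over 8 h (adjusted p = 0.00313) and by 1.16 ± 0.16 over no hCG. Tpp1, which removes tripeptides, measured 10.38 and 10.44 without hCG, 10.53 and 10.70 at 8 h, and 11.70 and 11.39 at 16 h, with a rise of 0.92 ± 0.17 at 16 h against 8 h (adjusted p = 0.00424). Ctsa, a carboxypeptidase that also shields Glb1 and Neu1 from breakdown, was at 10.48 and 10.29 at 8 h, against 10.88 and 10.68 without hCG, a difference that was not called (adjusted p = 0.0841). It then rose by 0.78 ± 0.16 at 16 h against 8 h (adjusted p = 0.00799), and its partners Glb1 and Neu1 rose by 0.80 ± 0.16 and 0.74 ± 0.19.

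Of the 9 glycosidases, 7 rose at 16 h against 8 h (77.8%, against 11.8% of all genes tested). The largest differences were those of the mannosidases, which trim the sugar chains of glycoproteins. Manba, the β-mannosidase, measured 8.20 and 8.84 without hCG, 8.16 and 8.58 at 8 h, and 10.08 and 9.99 at 16 h. The first groups overlapped and both 16 h arrays lay above them, with a rise of 1.67 ± 0.23 over 8 h (adjusted p = 0.00087). Man2b1, the α-mannosidase, measured 10.49 and 10.56 without hCG, 10.65 and 10.64 at 8 h, and 11.87 and 11.81 at 16 h, a rise of 1.20 ± 0.15 over 8 h (adjusted p = 0.000432). Hexa, a subunit of β-hexosaminidase, measured 11.26 and 11.73 without hCG, 11.35 and 11.59 at 8 h, and 12.04 and 12.26 at 16 h, with a rise of 0.68 ± 0.20 over 8 h (adjusted p = 0.0387). Gaa, the acid α-glucosidase that digests glycogen, rose by 0.60 ± 0.15 in the same comparison (adjusted p = 0.0238) and was not called at 16 h against no hCG.

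Gla and Idua differed at 8 h, in opposite directions. Gla, the α-galactosidase that acts on glycosphingolipids, measured 7.92 and 8.34 without hCG, 9.28 and 9.18 at 8 h, and 8.82 and 8.63 at 16 h. It rose by 1.10 ± 0.18 at 8 h against no hCG (adjusted p = 0.00118), and the 16 h arrays lay between those of the other groups, with -0.50 at 16 h against 8 h not called (adjusted p = 0.0897). Idua, the α-iduronidase of heparan and dermatan sulfate breakdown, measured 8.92 and 8.99 without hCG, 8.30 and 8.28 at 8 h, and 8.80 and 8.95 at 16 h. It fell at 8 h against no hCG (-0.66 ± 0.15, adjusted p = 0.0071) and was higher at 16 h than at 8 h by 0.59 ± 0.15 (adjusted p = 0.0238). These comparisons share the 8 h arrays. The fall of Idua was not called without either 8 h array or with the mean of its probe sets, and the rise was not called without any single array of 8 h or 16 h or with that mean. Gusb, the β-glucuronidase, was called on its brightest probe set only at 16 h against no hCG, where it rose by 0.84 ± 0.17 (adjusted p = 0.00295).

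The 5 sulfatases did not move together. Arsa, the arylsulfatase that acts on sulfatide, measured 7.85 and 7.92 without hCG, 7.68 and 7.56 at 8 h, and 9.44 and 9.41 at 16 h. Both 16 h arrays lay far above the other 4, and Arsa rose by 1.80 ± 0.15 over 8 h, 3.49-fold (adjusted p = 4.63e-05). Galns, which acts on keratan and chondroitin sulfate, rose by 0.69 ± 0.17 over 8 h (adjusted p = 0.0183). Arsb, which acts on dermatan and chondroitin sulfate, measured 10.20 and 10.60 without hCG, 9.62 and 9.59 at 8 h, and 10.06 and 10.07 at 16 h. Its fall at 8 h against no hCG was -0.79 ± 0.17 (adjusted p = 0.00574). Sgsh, the sulfamidase of heparan sulfate breakdown, was the only sulfatase lower at 16 h than without hCG by the test: it measured 8.09 and 8.12 without hCG, 7.70 and 7.68 at 8 h, and 7.12 and 7.37 at 16 h. The 3 groups did not overlap, and the 16 h difference was -0.86 ± 0.16 (adjusted p = 0.00185). Ids, the iduronate sulfatase, measured 9.39 and 9.88 without hCG, 9.41 and 9.66 at 8 h, and 9.68 and 9.45 at 16 h, with overlapping groups and no call.

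The lipid hydrolases and the thioesterase Ppt1 showed smaller differences, all within 1.05 in size. Lipa, the acid lipase that frees cholesterol from lipoprotein esters, rose by 0.50 ± 0.16 at 8 h against no hCG (adjusted p = 0.0352), by 0.55 ± 0.16 at 16 h against 8 h (adjusted p = 0.0364) and by 1.05 ± 0.16 at 16 h against no hCG (adjusted p = 0.000569). Both smaller Lipa calls were lost in several alternatives, and a probe set without a cross-hybridisation suffix gave -0.13 at 8 h (adjusted p = 0.661). The dimmest Lipa probe set rose by 1.05 ± 0.15 at 8 h against no hCG. Asah1, the acid ceramidase, measured 11.94 and 12.18 without hCG, 12.33 and 12.54 at 8 h, and 12.69 and 12.89 at 16 h, and rose by 0.73 ± 0.17 at 16 h against no hCG (adjusted p = 0.00723). Ppt1, which removes palmitate from proteins, measured 10.24 and 10.44 without hCG, 9.78 and 9.92 at 8 h, and 10.47 and 10.44 at 16 h. It was lowest at 8 h in both comparisons that use those arrays, with -0.49 ± 0.16 against no hCG (adjusted p = 0.0352) and 0.61 ± 0.16 for 16 h against 8 h (adjusted p = 0.0237). These Ppt1 calls were lost in 8 and 5 alternatives, each time including those without a single 8 h array, and a second probe set gave 0.23 ± 0.22 at 8 h against no hCG (adjusted p = 0.495). Smpd1, the acid sphingomyelinase, was not called in any comparison, with differences between -0.10 and 0.30.

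Psap and Npc2 were among the members that rose at 8 h, and Npc1 fell. Psap encodes prosaposin, the precursor of the saposins that present sphingolipids to their hydrolases. It measured 11.60 and 11.42 without hCG, 13.18 and 13.38 at 8 h, and 13.87 and 13.75 at 16 h, with no overlap between the groups. Psap rose by 1.77 ± 0.16 at 8 h against no hCG (adjusted p = 2.68e-05) and by 2.30 ± 0.16 at 16 h against no hCG, 4.93-fold (adjusted p = 4.16e-06), and the 0.53 ± 0.16 at 16 h against 8 h had an adjusted p of 0.0468 and was lost in 6 alternatives. Npc2, the soluble protein that takes cholesterol inside the lysosome and hands it to Npc1, measured 12.40 and 12.49 without hCG, 13.17 and 13.41 at 8 h, and 13.68 and 13.80 at 16 h. It rose by 0.84 ± 0.16 at 8 h against no hCG (adjusted p = 0.00264) and by 1.29 ± 0.16 at 16 h against no hCG (adjusted p = 0.000164).

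Npc1, the membrane partner of Npc2, was lower at 8 h. It measured 9.29 and 9.12 without hCG, 8.74 and 8.64 at 8 h, and 8.92 and 8.86 at 16 h, so both later groups lay below the arrays without hCG. The fall at 8 h was -0.52 ± 0.15 (adjusted p = 0.0261), and -0.32 at 16 h against no hCG was not called. The fall was not called without either 8 h array or without replicate 1 of no hCG. Grn, the progranulin gene, rose by 0.91 ± 0.15 at 16 h against 8 h (adjusted p = 0.00268) and by 0.57 ± 0.15 at 16 h against no hCG (adjusted p = 0.0146).

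Of the 7 membrane proteins, Lamp2 alone was called at 8 h against no hCG, a rise in 14.3%, against 16.9% of all genes tested. Lamp1 and Lamp2 encode the main glycoproteins of the lysosomal membrane, and Lamp2 also serves in chaperone-mediated autophagy. Lamp2 measured 11.33 and 11.69 without hCG, 12.40 and 12.59 at 8 h, and 12.75 and 12.73 at 16 h. It rose by 0.98 ± 0.17 at 8 h (adjusted p = 0.0018) and by 1.23 ± 0.17 at 16 h (adjusted p = 0.000397) against no hCG. Lamp1 measured 11.71 and 12.14 without hCG, 12.15 and 12.48 at 8 h, and 12.64 and 12.79 at 16 h. Its groups did not overlap, and its rise of 0.79 ± 0.19 at 16 h against no hCG was called (adjusted p = 0.00978), unlike the smaller differences of each interval.

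Ctns, the cystine exporter, rose by 0.76 ± 0.17 at 16 h against 8 h (adjusted p = 0.011). Atp6ap1, an accessory subunit of the proton pump, rose by 0.75 ± 0.17 (adjusted p = 0.0136) and Mcoln1, a calcium channel, by 0.53 ± 0.15 (adjusted p = 0.0378) in that comparison. Laptm4a, a membrane protein of late endosomes and lysosomes, rose by 0.65 ± 0.18 only at 16 h against no hCG (adjusted p = 0.0153). Scarb2, the receptor that carries β-glucocerebrosidase to lysosomes, was not called on its brightest probe set, with differences between -0.12 and 0.08. Tfeb, which drives many lysosomal genes in other cells, measured 8.74 and 8.92 without hCG, 9.26 and 8.99 at 8 h, and 9.02 and 8.89 at 16 h. The Tfeb arrays at 16 h overlapped those without hCG, and its differences of 0.30 at 8 h and 0.12 at 16 h against no hCG were not called.

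The promoter letters TCACGTG did not separate members by their calls in a simple way. Between 8 h and 16 h, 7 of the 20 risen members with a promoter sequence held them, and 3 of the 15 that were not called. At 16 h against no hCG they were in 5 of 22 risen members, in 4 of 12 that were not called and in Sgsh, which fell. At 8 h against no hCG they were in 2 of 7 risen members, Lgmn and Gla, in 8 of 25 not called and in 0 of 3 that fell. No test was made of these counts, and a match is a description of letters, not a bound site.

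Different probe sets of a gene mostly gave the same call. Of the 23 members with several tested probe sets, 15 had the same call on all of them at 8 h against no hCG, 13 at 16 h against 8 h and 16 at 16 h against no hCG, and 0 had opposite calls. For Psap, the dimmer probe set rose by 2.28 ± 0.30 at 8 h against no hCG, where its brightest gave 1.77. For Lamp2, the dimmest of 4 probe sets rose by 2.00 ± 0.28 at 8 h, where its brightest gave 0.98. For Npc2, a pair of other probe sets rose at 16 h against 8 h by 0.71 ± 0.17 and 0.77 ± 0.19, where the brightest, with 0.45, was not called.

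**Figure D3:**
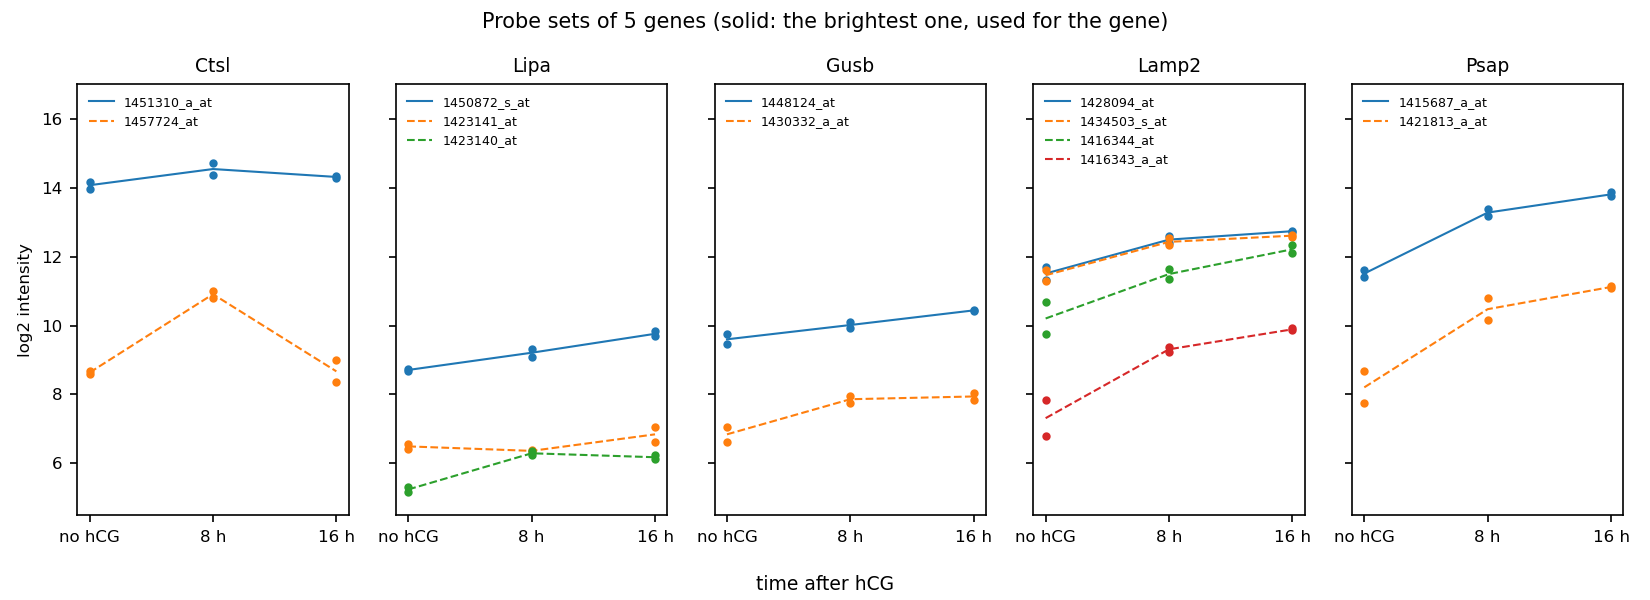
Log2 intensity of every tested probe set of Ctsl, Lipa, Gusb, Lamp2 and Psap without hCG, at 8 h and at 16 h. Points are arrays and lines join group means, with a solid line for the brightest probe set. The dimmer Ctsl probe set peaks at 8 h while the brightest one is nearly flat, and all Lamp2 probe sets run upward.

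Other genes of the lysosome gave a mixed picture. Of 22 further lysosomal enzymes and membrane proteins tested, 6 rose and 1 fell at 16 h against 8 h, with a median of 0.27. These were 27.3% and 4.55%, against 11.8% and 9.12% of all genes tested. At 16 h against no hCG 8 rose and 4 fell, 36.4% and 18.2%, against 20.8% and 20.8% of all genes. Gm2a, the activator that presents ganglioside to β-hexosaminidase, rose by 2.42 ± 0.21 at 16 h against 8 h. Pla2g15, a lysosomal phospholipase, was the 1 that fell there, by 1.23 on the log2 scale, and Cln3, a membrane protein mutated in Batten disease, rose by 0.88 ± 0.17. These calls at 16 h against 8 h were 2 in all without replicate 1 of 16 h, 2 without replicate 1 of 8 h and 3 without replicate 2 of 8 h. At 8 h against no hCG 4 rose and 5 fell, or 2 and 3 without replicate 1 of 8 h. With all arrays, 18.2% of this list rose and 22.7% fell at 8 h, near the 16.9% and 20.5% of all genes tested. Naglu, another enzyme of heparan sulfate breakdown, fell by 1.45 at 8 h and by 1.53 at 16 h against no hCG on the log2 scale.

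Of 15 subunits of the proton pump that acidifies lysosomes, 6 rose at 8 h and 10 at 16 h against no hCG, with medians of 0.48 and 0.68. By limma 0 fell, at an unadjusted p under 0.05 as well. The rises were 40% and 66.7% of the subunits, against 16.9% and 20.8% of all genes tested. The 6 rises at 8 h became 2 without replicate 1 of 8 h, 1 without replicate 2 of 8 h and 3 without replicate 1 of no hCG. Atp6v1a, a catalytic subunit, rose by 0.90 ± 0.17 at 8 h and by 1.05 ± 0.17 at 16 h against no hCG. Atp6v0d2, a subunit known from osteoclasts and macrophages, averaged 4.77 ± 0.40 without hCG, 5.30 ± 0.11 at 8 h and 7.56 ± 0.04 at 16 h (SD, n = 2 each), a rise of 2.26 ± 0.20 over 8 h. Its first group means lay under the limit for dim probe sets, 5.62. Between 8 h and 16 h, 2 subunits rose and Atp6v0a1 fell by 0.75 on the log2 scale. The shares of 13.3% and 6.67% lay near the 11.8% and 9.12% of all genes tested. These 3 calls were 1 without replicate 2 of 16 h or without either 8 h array, and 5 without either array of no hCG.

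Of 16 genes that deliver enzymes to the lysosome, 1 rose and 4 fell at 8 h against no hCG, and 1 rose and 3 fell at 16 h against no hCG. The falls were 25% and 18.8% of the list, near the 20.5% and 20.8% of all genes tested that fell. The rises were 6.25% each time, under the 16.9% and 20.8% of all genes. Those that fell at 8 h included the mannose phosphate receptor Igf2r (-0.86 ± 0.21), the adaptor Gga2 (-1.72 ± 0.16) and Gnptg (-0.85 ± 0.19), a subunit of the enzyme that adds the mannose phosphate tag. The smaller receptor M6pr rose by 0.69 ± 0.18 at 16 h against no hCG, and the sorting receptor Sort1 rose by 0.73 ± 0.15 at 8 h against no hCG and was lower at 16 h than at 8 h (-0.65 ± 0.15). Between 8 h and 16 h, 1 delivery gene rose and 1 fell, 6.25% each, under the 11.8% and 9.12% of all genes tested. Neither gene was called without replicate 1 of 16 h or without either 8 h array, and 1 was without replicate 2 of 16 h. Against no hCG, 3 were called at 8 h without either 8 h array, and 2 at 16 h without replicate 1 of 16 h.

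Of 18 autophagy genes, 5 rose and 3 fell at 8 h, and 7 rose and 3 fell at 16 h, against no hCG. The 8 h shares were 27.8% and 16.7%, against 16.9% and 20.5% of all genes tested. Those at 16 h were 38.9% and 16.7%, against 20.8% and 20.8%. The cargo receptor Sqstm1 rose by 0.87 ± 0.15 and 1.26 ± 0.15 at these times, while Atg5 and Atg12, which are joined to each other during autophagosome growth, fell by 0.95 and 0.77 on the log2 scale at 8 h. Between 8 h and 16 h, 1 rose (Gabarapl1, 0.56 ± 0.15) and 1 fell (Uvrag, -1.0 ± 0.17). That was 5.56% each, under the 11.8% and 9.12% of all genes tested. Of these calls, 1 remained when any single array of 8 h or of 16 h was left out. The 8 calls at 8 h against no hCG were 5 without replicate 1 of 8 h, 4 without replicate 2 of 8 h and 5 without replicate 1 of no hCG. The Tfeb relatives Tfe3 and Mitf were tested and not called in any comparison. Of 3 tested inhibitors of cysteine proteases, Cstb was the 1 called (33.3%, against 16.9% and 20.8% of all genes that rose). Cstb rose by 1.11 ± 0.16 at 8 h and by 1.47 ± 0.16 at 16 h against no hCG.

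**Figure D4:**
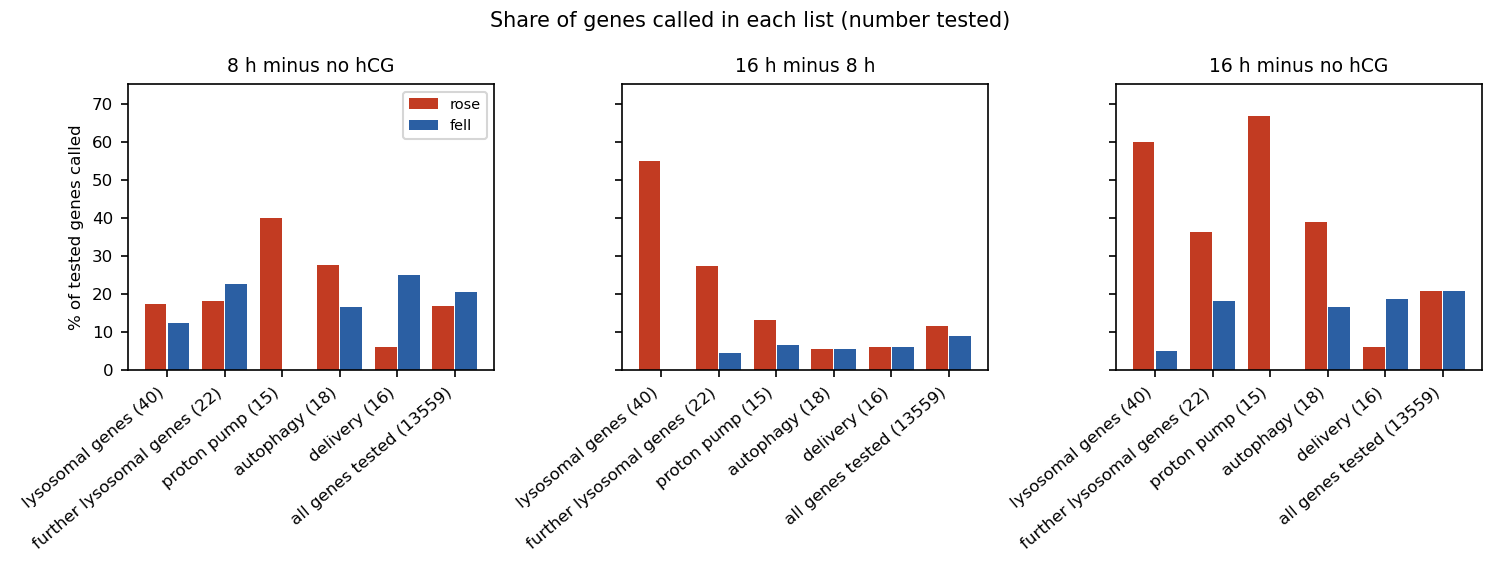
Percent of tested genes that rose (red) or fell (blue) in the lysosomal list, 4 related lists and all genes tested, for 8 h minus no hCG, 16 h minus 8 h and 16 h minus no hCG. In 16 h minus 8 h the lysosomal genes rose in 55.0% of cases, against 11.8% of all genes tested, and at 8 h their 17.5% stands beside 16.9%.

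Marker genes of other cells moved in the same comparison as most of the lysosomal rises. Of 21 leukocyte genes tested, 19 rose at 16 h against 8 h (90.5%, against 11.8% of all genes tested), with a median of 1.99. Against no hCG, 19 rose at 16 h, again 90.5%, beside 20.8% of all genes. The filter took the mean over the 6 arrays, so a gene bright only at 16 h could pass it. Flat, dim genes were left out. Of the 27 genes measured, 10 had a mean under the limit of 5.62 without hCG, 10 at 8 h and 6 at 16 h. Ptprc and Itgb2 were among those under it at 8 h, with 5.22 and 5.32. The number that rose at 16 h against 8 h was 11 to 19 over the alternatives. At 8 h against no hCG, 2 rose and 1 fell, with a median of -0.09. These were 9.52% and 4.76%, under the 16.9% and 20.5% of all genes tested. The mean log2 intensity of the 27 leukocyte genes measured was 6.15 and 6.31 without hCG, 6.20 and 6.39 at 8 h, and 7.81 and 7.82 at 16 h. The mean of the 40 lysosomal genes was 10.01 and 10.18 without hCG, 10.20 and 10.29 at 8 h, and 10.82 and 10.80 at 16 h. Both means were highest on the 16 h arrays.

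Summed on the linear scale, the leukocyte genes gave 5154 and 5306 without hCG, 4774 and 4807 at 8 h, and 14728 and 15090 at 16 h. A large part of the sums before 16 h came from 1 probe set, that of Laptm5, which was not called in any comparison. Laptm5 averaged 11.47 without hCG and 11.11 at 8 h, against 8.47 and 8.34 for Lyz2, the next brightest. These earlier sums are therefore not a level of leukocyte genes in general. Several leukocyte markers encode lysosomal proteins themselves. Ctss, a cathepsin of antigen-presenting cells, averaged 7.80 ± 1.27 without hCG, 8.07 ± 0.60 at 8 h and 11.30 ± 0.37 at 16 h (SD, n = 2 each). It rose by 3.23 ± 0.50 at 16 h against 8 h, and Cd68, a macrophage glycoprotein of the Lamp family, rose by 1.99 ± 0.22. Itgb2, the leukocyte integrin chain, rose by 3.06 ± 0.25, and Lyz2, a lysozyme gene with a near-identical copy, by 3.32 ± 0.26. At 8 h against no hCG, Csf1r and Fcgr3, receptors of macrophages, rose by 1.36 ± 0.19 and 1.59 ± 0.26. H2-Ab1 fell there (-0.68 ± 0.19), and the other 18 of the 21 tested leukocyte genes were not called. Of the 21 differences, 10 were positive and 11 negative. Of other defining markers, chosen after their values were seen, Ptprc rose by 2.58 ± 0.24 at 16 h against 8 h, Adgre1 by 1.35 ± 0.15, Tyrobp by 2.17 ± 0.19, C1qa by 2.31 ± 0.19 and C1qc by 2.42 ± 0.16. The 2 tested leukocyte genes not called in that comparison were Laptm5 (-0.11) and Acp5 (0.19). Neither was called at 16 h against no hCG (-0.46 and -0.11). The 6 of 27 genes with a mean under the dim limit at 16 h were Itgam, Cx3cr1, Cd3g, Cd79b, S100a9 and Aif1.

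Of 6 tested genes of the oviduct epithelium list, 5 rose at 16 h against 8 h, and Epcam, with 0.15, was not called. The rises were 83.3%, against 11.8% of all genes tested. Pax8 and Foxj1 were too dim to be tested. The mean of the 8 measured genes was 7.39 and 7.64 without hCG, 6.88 and 7.03 at 8 h, and 8.59 and 8.46 at 16 h. Ovgp1, the oviduct glycoprotein, rose by 3.85 ± 0.50 over 8 h and the keratin gene Krt18 by 3.22 ± 0.21. The Ovgp1 arrays without hCG lay apart, at 7.90 and 9.58. Cdh1 rose by 1.56 ± 0.20 over 8 h and was not called at 16 h against no hCG (-0.22). The oocyte genes' mean was 10.69 and 10.62 without hCG, 8.55 and 8.52 at 8 h, and 8.46 and 8.19 at 16 h. Between 8 h and 16 h, 5 of the 13 tested oocyte genes rose and 5 fell, 38.5% each. Of all genes tested, 11.8% rose and 9.12% fell there. The part of leukocytes, of oviduct cells and of the oocyte's share of the RNA in the lysosomal differences was not tested.

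**Figure D5:**
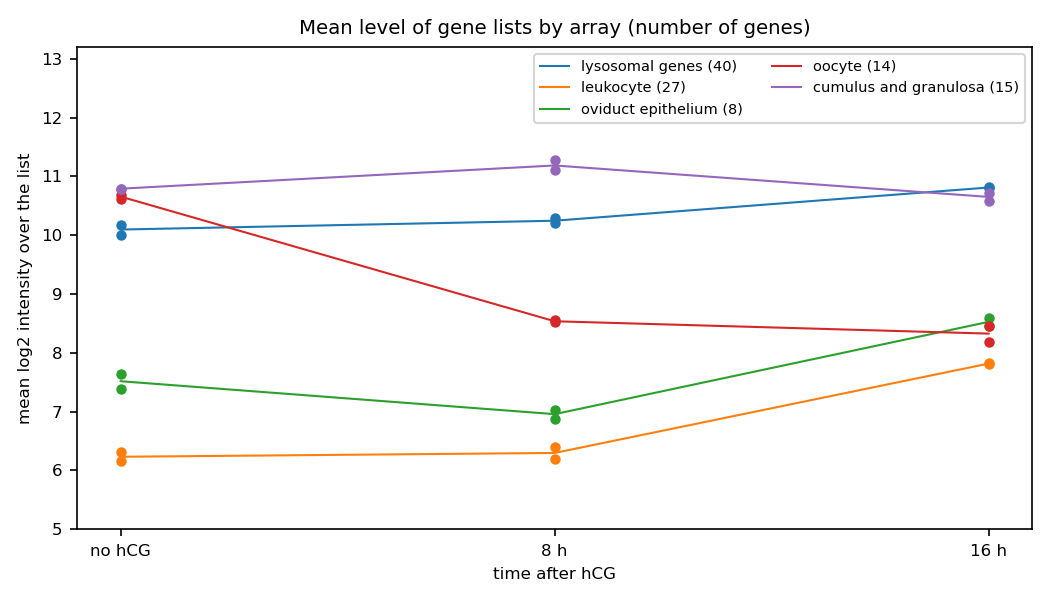
Mean log2 intensity per array of the lysosomal genes and of the leukocyte, oviduct epithelium, oocyte, and cumulus and granulosa marker lists, by time after hCG, with the arrays without hCG at the left. Points are arrays. The lysosomal, leukocyte and oviduct lists are highest at 16 h, while the oocyte list is highest without hCG.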

How the data were processed

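The deposited table held log2 intensities for 45101 probe sets on 6 Affymetrix arrays of biotin-labelled cRNA, as the values show. The authors' background correction, normalization and summary are not given in the sources used here. Array medians ranged from 6.14 to 6.27, so the values were used as deposited. Signal over background is unknown, and 2 arrays per group limit the precision.

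After 64 control probe sets were left out, probe sets whose mean over the arrays reached the 40th percentile (5.62) were tested, 27022 in all. A model with 1 mean per group, over the 6 arrays together, was fitted in limma 3.58.1 under R 4.3.3, with moderated variances. Tests were two-sided, with Benjamini-Hochberg adjustment over all tested probe sets, and a call needed an adjusted p under 0.05. Symbols came from the platform annotation, and 932 probe sets with several symbols named no gene. All 40 measured members had current symbols. The method was tested on simulated data.

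Members and lists were chosen with earlier results of these data known. Members were given in full where they were among the 5 highest or lowest called changes of a comparison or the 2 brightest of their role, and others in brief. Up to 4 called genes per further list and comparison could be named, by largest change. Of all genes tested, 11.8% rose and 9.12% fell at 16 h against 8 h. The remaining marker lists rose and fell as follows at 16 h against 8 h: cumulus and granulosa 2 and 7 of 15, theca and stroma 0 and 4 of 9, endothelium 0 and 0 of 4, ovarian surface epithelium 0 and 2 of 3, erythrocyte 0 and 0 of 1.

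Alternatives were quantile normalization, median centring, other filters, a trend and robust prior, only the compared groups, a replicate block, other rules for probe sets and leaving out each array.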

Additional observations from a re-analysis of the deposited data

Results flagged for a closer look

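In the comparisons with no hCG, 5 tested probe sets rose although their gene's brightest probe set was not called upward there. At 8 h against no hCG these were a Ctsb probe set with 0.85 (adjusted p = 0.0301), a Ctsl probe set with 2.27 (adjusted p = 3.26e-05) and a Gusb probe set with 1.02 (adjusted p = 0.00217). At 16 h against no hCG a Ppt1 probe set rose by 0.64 (adjusted p = 0.0463) and a Scarb2 probe set by 0.59 (adjusted p = 0.0257). A pair of Npc2 probe sets did the same at 16 h against 8 h, by 0.71 (adjusted p = 0.0186) and 0.77 (adjusted p = 0.0185). All p-values are limma's, with Benjamini-Hochberg adjustment. The Ctsl probe set stood out, with both 8 h arrays more than 1.5 above the other 4 arrays, and why it differs from the brightest one was not tested.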

How the results depend on the processing

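Leaving out single arrays moved the counts most. Called members were 8 to 24 at 16 h against 8 h, and called probe sets were 2518 to 6340 there, against 4922 with all arrays, lower without any 8 h or 16 h array and lowest without replicate 1 of 8 h. At 8 h against no hCG they were 6109 to 9450, against 9167, lowest without replicate 2 of 8 h. Each other alternative left the counts of members and of probe sets within 1.5 times. Over all alternatives 1625 gene-level results were on the same side of the threshold, 38 were gained, 106 were lost and 1 reversed: Lipa at 8 h against no hCG, with -0.13 when probe sets with a cross-hybridisation suffix were left out, a setting that takes another probe set for Lipa. In every alternative run for the gene, 5 of 7 rises and 1 of 5 falls were kept at 8 h against no hCG, 6 of 22 rises at 16 h against 8 h, and 15 of 24 rises and 1 of 2 falls at 16 h against no hCG. Of those rises, 1, 1 and 5 were of genes that a stricter filter or the suffix rule left out, so fewer than 15 alternatives were run for them. No label states that the replicate numbers pair the arrays, so the main fit had no block. Replicate differences correlated at 0.468 between no hCG and 8 h, 0.135 between 8 h and 16 h, and 0.00103 between no hCG and 16 h. A shared replicate effect between no hCG and 8 h was thus not excluded. With the replicate number as a block, 16 members were called at 8 h and 26 at 16 h when set against no hCG, and 22 between the later times. The main fit gave 12, 26 and 22.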
